A study of Mus musculus with 98 samples.

Results

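Major urinary protein genes and other mouse liver genes known to depend on pulsatile growth hormone were followed in livers of chimeric mice. The set held 8 of the 19689 mouse rows of the liver count table: Mup1, Mup2, Mup3, Mup20, Mup21, Hsd3b5, Elovl3 and Selenbp2. The members were selected on symbol, as growth hormone dependent genes already seen to be low in one arm of these data, so their difference between the arms is described below without a test. All mice were 10-week-old males of the FRGN strain, which is Fah-/-, Rag2-/- and Il2rg-/- on a non-obese diabetic background, and both arms received cycles of nitisinone (NTBC), the antibiotics SMX/TMP and dextrose in the drinking water, and a high energy diet. In the Hu arm the liver had been repopulated with human hepatocytes, and mice above 70% repopulation were kept; in the Mu arm it had been repopulated with murine hepatocytes, whose strain is not given in the sources used here. RNA sequencing covered 15 Hu and 12 Mu livers at zeitgeber time (ZT, hours after lights on) 2, 6, 10, 14, 18 and 22, with 2 or 3 livers per arm and time, and also skeletal muscle and 2 hypothalamic nuclei, arcuate (ARC) and suprachiasmatic (SCN).

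In male mice the pituitary releases growth hormone in pulses. Each pulse acts through the growth hormone receptor and the kinase JAK2 to activate the transcription factor STAT5B in hepatocytes, and a set of genes with a male pattern of expression depends on that rhythm of activation. Major urinary proteins are small lipocalins that liver secretes into blood and that carry pheromones into urine; their genes lie in a cluster of near-identical copies. Hsd3b5 encodes a steroid reductase of male liver, Elovl3 an enzyme that lengthens fatty acids, and Selenbp2 a selenium-binding protein.

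The Mup copies differ so little that their counts depend on how reads with several matches were treated, which is not given in the sources used here. Coding sequences from the GENCODE mouse annotation (GRCm38) show this. The stretches below are 60 coding bases of each member of the family, shown at the window where Mup1 and Mup2 differed most. Ties were broken by the most differences between Mup1 and Mup3, so the window does not stand for the whole sequence. Capitals mark bases that differ from Mup1, and each run starts at coding base 91 (Mup1, Mup2), 94 (Mup20, Mup21) or 103 (Mup3).
Mup1: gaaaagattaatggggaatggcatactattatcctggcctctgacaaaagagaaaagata
Mup2: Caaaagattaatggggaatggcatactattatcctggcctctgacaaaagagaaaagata
Mup20: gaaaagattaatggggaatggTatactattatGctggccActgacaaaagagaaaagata
Mup3: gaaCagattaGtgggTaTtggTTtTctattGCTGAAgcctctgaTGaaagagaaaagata
Mup21: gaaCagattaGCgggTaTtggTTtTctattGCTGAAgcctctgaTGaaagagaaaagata
Over the whole coding sequence, Mup1 and Mup2 were identical at 537 of 540 bases (99.44%). Mup3 and Mup21 were closest to each other, at 94.75% identity, and Mup20 was 90.61% identical to Mup1. Of all stretches of 100 bases in a member's transcript, 12.8% occurred in no other gene for Mup1 and 2.66% for Mup2, against 61.2% for Mup20, 95.5% for Mup21 and 97.1% for Mup3. Counts of Mup1 and Mup2 therefore rest on few distinguishing bases, while those of Mup3 and Mup21 rest on sequence that is nearly all their own. The same share was 100% for Elovl3, 92.2% for Hsd3b5 and 78.8% for Selenbp2, whose coding sequence was 98.73% identical to that of Selenbp1. For stretches of 50 bases the share was 48% for Selenbp2 and 49.5% for Mup20.

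The 5 Mup members lie on mouse chromosome 4, all on the minus strand: Mup2 (ENSMUSG00000078688) at chr4:60135932-60154289, Mup1 (ENSMUSG00000078683) at chr4:60498012-60501960, Mup20 (ENSMUSG00000078672) at chr4:62050234-62054158, Mup3 (ENSMUSG00000066154) at chr4:62083476-62087342 and Mup21 (ENSMUSG00000066153) at chr4:62147932-62150863. Hsd3b5 (ENSMUSG00000038092) lies at chr3:98618634-98630252 on the minus strand, Selenbp2 (ENSMUSG00000068877) at chr3:94693556-94704413 on the plus strand and Elovl3 (ENSMUSG00000038754) at chr19:46131897-46135694 on the plus strand. RefSeq promoter windows (GRCm38.p6) matched 5 of the 8 members, those other than Mup1, Mup20 and Elovl3. The 250 bases before the RefSeq start of the 3 Mup genes found are shown because these genes were high and low together; capitals mark TATATAA, a form of the TATA element, searched on both strands and held by 3.04% of 32851 promoter windows of that length.
Mup2 (chr4:60139857-60140106, minus strand): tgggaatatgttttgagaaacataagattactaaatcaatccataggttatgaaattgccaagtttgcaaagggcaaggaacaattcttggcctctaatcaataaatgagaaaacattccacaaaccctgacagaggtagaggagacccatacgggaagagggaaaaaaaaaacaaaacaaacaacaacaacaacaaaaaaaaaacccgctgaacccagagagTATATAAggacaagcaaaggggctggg
Mup3 (chr4:62087318-62087567, minus strand): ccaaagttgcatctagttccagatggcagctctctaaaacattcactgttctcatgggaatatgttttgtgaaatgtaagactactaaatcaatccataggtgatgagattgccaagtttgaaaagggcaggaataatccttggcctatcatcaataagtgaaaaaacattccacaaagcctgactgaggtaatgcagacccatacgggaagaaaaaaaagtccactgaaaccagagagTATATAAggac
Mup21 (chr4:62150842-62151091, minus strand): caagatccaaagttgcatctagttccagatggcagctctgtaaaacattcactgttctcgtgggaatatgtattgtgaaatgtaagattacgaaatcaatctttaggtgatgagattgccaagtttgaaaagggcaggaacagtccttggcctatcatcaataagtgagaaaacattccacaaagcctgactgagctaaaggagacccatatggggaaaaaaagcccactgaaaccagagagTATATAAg
The Mup2 window lies inside the GENCODE span of Mup2 and the other two overlap the start of theirs, since RefSeq and GENCODE place these starts differently. Aligned end to end, the Mup3 and Mup21 windows were identical at 228 positions, with 16 mismatches and 12 gaps. The palindrome TTCNNNGAA bound by STAT factors was found in 7.02% of all windows and in none of the 5 windows of members, which says only that these letters are not there.

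Total counts were 97.1 to 118.3 M in Mu livers and 22.95 to 122.2 M in Hu livers, with 7.70 to 87.9 M of these in mouse rows. Levels are given as CPM, a gene's share of the mouse-row counts of its library on the usual counts-per-million scale, and the human share is the percentage of a library's counts that fell in human rows. Hu livers had human shares of 15.86 to 93.07%, and Mu livers 0.00592 to 0.0204%. The 14 hepatocyte markers, Alb among them, were all detected in both arms, and summed to 119432 to 146362 CPM in Mu and 23726 to 148439 CPM in Hu livers. Mouse Fah, deleted in the host strain, averaged 547 CPM in Mu livers against 21.3 CPM in Hu livers, so host and donor origin of the mouse hepatocytes, repopulation by human cells and arm cannot be told apart. The 5 bile duct markers summed to 58.9 to 139 CPM in Mu and 244 to 1566 CPM in Hu livers, with ranges that did not overlap; the Kupffer, stellate and endothelial sums had medians of 449, 379 and 253 CPM in Mu and 789, 1359 and 549 CPM in Hu, and their part in what follows was not tested. In bulk tissue, fewer cells of a type and less RNA per cell cannot be told apart. The Hu liver at ZT 18, replicate 3, stood apart, with the highest human share, a hepatocyte marker sum of 23726 CPM against 84863 to 148439 CPM in the other 14 Hu livers, and 7.70 M mouse counts.

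All 8 members were abundant or moderately expressed in Mu livers and far lower in Hu livers, and for all 8 every Hu liver was below every Mu liver. Over all 14977 genes tested, 3.67% separated the arms in that way; the members were chosen for this contrast, so nothing is read from it. The Mup genes kept 0.250% (Mup3) to 4.76% (Mup20) of their Mu mean where they were measurable in Hu livers, and Mup1 and Mup2 were close to 0. Hsd3b5 and Elovl3 kept 0.0653% and 0.0675%, and Selenbp2 kept 7.47%.

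**Figure D1:**
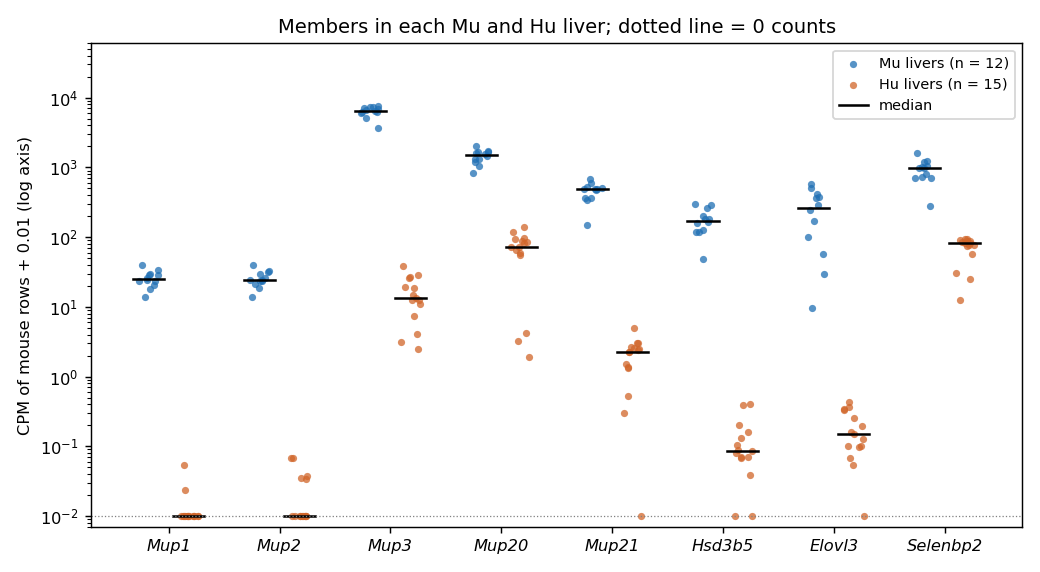
Level of each member in every liver, as CPM of mouse rows plus 0.01 on a log axis, with Mu livers (12, blue), Hu livers (15, orange) and medians as black bars. Points on the dotted line had 0 counts. For all 8 members the Hu points lie below the Mu points, and Mup20, Selenbp2 and Mup3 remain highest in Hu livers, with medians of 72.2, 81.3 and 13.5 CPM.

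Mup3, the most abundant Mup row here, ranged in Mu livers from 3630 to 7601 CPM with a median of 6477 CPM, and in Hu livers from 2.50 to 38.9 CPM with a median of 13.5 CPM. The means were 6364 ± 1112 CPM (SD, n = 12) and 15.9 ± 10.4 CPM (SD, n = 15), a ratio of 400. Within the arms, the highest Mu liver had 2.09 times the level of the lowest, while the Hu livers spread more widely around their mean.

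Mup20, the gene of the male pheromone darcin, ranged from 825 to 2055 CPM (median 1526) in Mu livers and from 1.87 to 142 CPM (median 72.2) in Hu livers. The means of 1454 ± 331 and 69.2 ± 40.8 CPM (SD, n = 12 and 15) gave a ratio of 20.998. Mup20 was thus less reduced than Mup3, and in Hu livers it exceeded Mup3 by mean level per length as well, at 74.6 against 14.9 RPKM (CPM per kilobase of exon), whereas in Mu livers it was below Mup3, at 1567 against 5959 RPKM. Mup21 ranged from 147 to 691 CPM (median 484) in Mu livers and from 0 to 4.94 CPM (median 2.26) in Hu livers, with means of 456 ± 139 and 2.04 ± 1.26 CPM (SD), a ratio of 223.

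Mup1 had 1414 to 4128 counts in Mu livers, or 13.7 to 39.7 CPM with a median of 25.3 CPM. In Hu livers it had 0 counts in 13 of 15 and 1 count in each of the other two. Against a floor of 3 counts in each Hu library, Mup1 was at least 238-fold lower in Hu livers. Mup2 had 1429 to 4173 counts in Mu livers (13.8 to 39.1 CPM, median 24.01) and 0 to 5 counts in Hu livers, 14 in all. Over the 659.9 M mouse counts of the Hu livers this was 0.0212 CPM, and the Mu mean of 25.7 CPM was 1211 times as high, with a 95% Poisson interval of 722 to 2216 that covers counting error only.

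Hsd3b5 ranged from 48.6 to 303 CPM (median 173) in Mu livers, and from 0 to 0.390 CPM (median 0.0766), or 0 to 13 counts, in Hu livers. Its means were 179 ± 75.1 and 0.117 ± 0.120 CPM (SD, n = 12 and 15), a ratio of 1531. Elovl3 ranged from 9.66 to 577 CPM (median 263) in Mu livers and from 0 to 0.428 CPM (median 0.140), or 0 to 24 counts, in Hu livers, and its means of 260.5 ± 190.4 and 0.176 ± 0.129 CPM (SD) gave a ratio of 1481. These ratios rest on few Hu counts, 68 for Hsd3b5 and 139 for Elovl3 over all 15 livers. Selenbp2 ranged from 281 to 1633 CPM (median 979) in Mu and from 12.6 to 94.7 CPM (median 81.3) in Hu livers, with means of 945 ± 339 and 70.5 ± 26.6 CPM (SD) and a ratio of 13.4.

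On a log2 scale the difference between arm means, Hu minus Mu, was -3.74 for Selenbp2, -4.39 for Mup20, -7.80 for Mup21, -8.64 for Mup3, -10.53 for Elovl3, -10.58 for Hsd3b5 and -10.97 for Mup2, while Mup1 was lower by at least 7.90. The median over the 8 members was -8.27 with Mup1 at its bound. Relative to the spread of log2 levels between Hu livers, which was 0.861 (SD) for Selenbp2 and 2.03 for Mup20, the order of Selenbp2 and Mup20 is not resolved, nor is that of Hsd3b5, Elovl3 and Mup2. All were measured in the same livers, and no paired comparison was made.

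By level per length in Mu livers, the order was Mup3 (5959 RPKM), Mup20 (1567), Mup21 (673), Selenbp2 (416), Elovl3 (132), Hsd3b5 (116), Mup2 (19.2) and Mup1 (16.3). Mup1 and Mup2 did not differ beyond their spread between livers, nor did Elovl3 and Hsd3b5. These genes were measured in the same livers, and no paired comparison was made, so their order is not settled. The exon lengths used were 1584 bases for Mup1 and 1336 for Mup2, while the transcripts compared above had 927 bases each. The placing of Mup1 and Mup2 is limited by the shared stretches described above.

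The other 17 Mup rows of the table had Mu means from 0.0209 to 306 CPM and at most 11 counts in any Hu liver. In 16 of the 17, every Hu liver was below every Mu liver, against 3.67% of all genes that passed the filter on low counts, as 15 of these 17 did. The share of 100-base stretches found in no other gene ran from 0 to 100% in these rows, with a median of 18.2%. Many of them can thus share reads with each other and with members, so they are not 17 separate results. The 3 most abundant in Mu were Mup7, at 306 ± 142 CPM (SD, n = 12), Mup9, at 146 ± 101 CPM, and Mup17, at 96.9 ± 61.4 CPM, and their Hu means were 0.0767, 0.0650 and 0.0139 CPM. Some copies varied more between Mu livers than the 5 Mup members did: Mup16 spanned a 60.5-fold range and Mup18 a 32.5-fold range, against 2.09-fold for Mup3 and 4.69-fold for Mup21. All Mup rows together took 0.474 to 1.14% of mouse counts in Mu livers (median 0.924%) and 0.000584 to 0.0184% in Hu livers (median 0.00940%).

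Close relatives of the other members did not all share their direction. The relatives called below are fitted values from edgeR's quasi-likelihood test of the time-averaged level, adjusted over all 14977 genes by the Benjamini-Hochberg method; 37% of all genes were called lower and 42.5% higher in Hu livers. Selenbp1, which shares sequence with Selenbp2, averaged 280 CPM in Mu livers against 443 CPM in Hu livers and was not called (log2 difference 0.01 ± 0.23 SE, adjusted p = 0.954). The part of shared reads in the Selenbp2 counts was not tested. Of the steroid dehydrogenases, Hsd3b2 fell by 5.36 on the log2 scale (SE 0.28, adjusted p = 8.77e-14) and Hsd3b3 fell by 2.74 (SE 0.24, adjusted p = 7.15e-10), while Hsd3b1 rose by 5.17 (SE 0.40) from 0.0689 to 3.65 CPM. Hsd3b6 averaged 0.170 CPM in Mu livers against 0.0317 CPM in Hu livers and did not pass the filter on low counts. Of the fatty acid elongases, Elovl5, Elovl6, Elovl2 and Elovl1 were called lower, at -3.14, -2.31, -1.50 and -0.47, and Elovl7 higher, at 3.81, from 3.28 to 66.8 CPM. The small Elovl1 difference depends on the scaling, since its CPM means were 46.3 in Mu and 53.4 in Hu livers.

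The time course within Mu livers was not used to choose the members and was tested by fitting a 24 h cosine curve. Elovl3 was rhythmic in Mu livers and no other member was. Its 2 livers had 366 and 285 CPM at ZT 2, 170.5 and 241 at ZT 6, and 9.66 and 56.8 at ZT 10. They had 99.98 and 29.9 CPM at ZT 14, 378 and 502 at ZT 18, and 410.0 and 577 at ZT 22. The 4 livers of ZT 10 and 14 were thus below the 8 livers of the other times. The fitted amplitude was 1.88 on the log2 scale, from mean to peak, with the peak at ZT 22.7 (edgeR, adjusted p = 0.00345). Over all genes 17.3% were called rhythmic in Mu livers, so 1 of 8 members is near that background. Leaving out any 1 liver kept the call, with amplitudes of 1.58 to 2.04; with time as 6 unordered levels in Mu livers alone, the call was lost (adjusted p = 0.0594), as it was with library sizes over mouse and human rows (adjusted p = 0.0794).

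**Figure D2:**
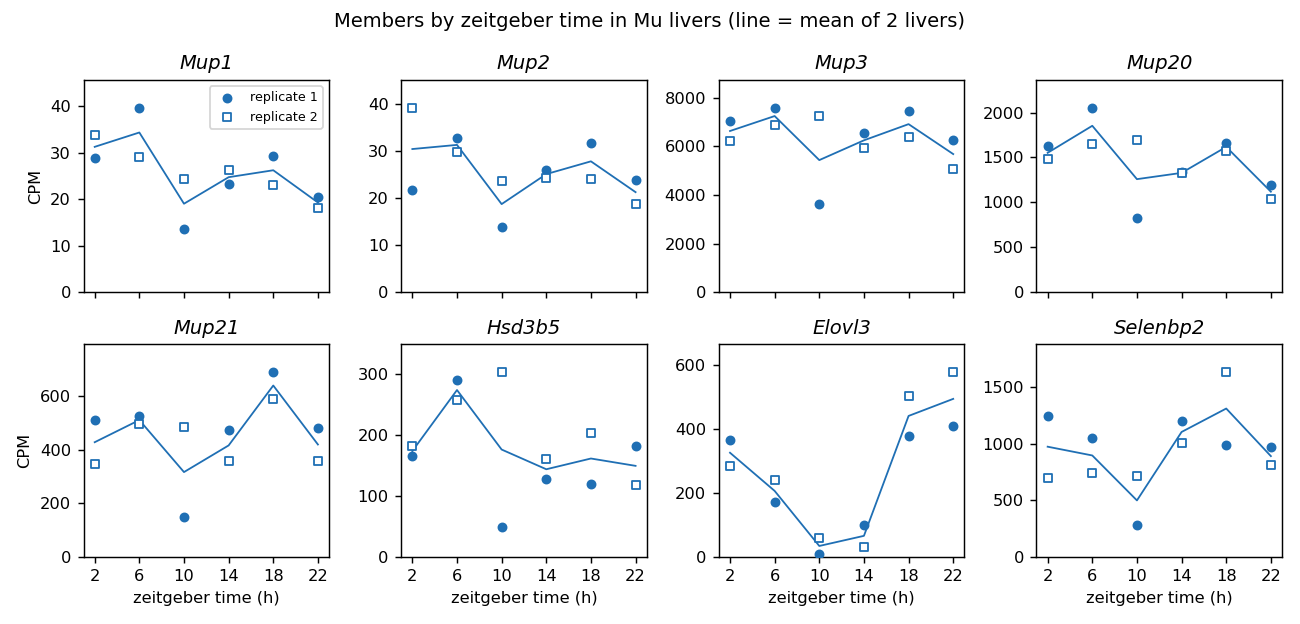
Level of each member in CPM (linear axes from 0) against zeitgeber time in the 12 Mu livers, with filled circles for replicate 1, open squares for replicate 2 and a line through the mean of the 2 livers. Elovl3 was lowest at ZT 10 and 14 and highest at ZT 22, and the low replicate 1 at ZT 10 recurs in the panels of the other members.

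For the other 7 members the adjusted p for rhythm in Mu livers ranged from 0.544 (Hsd3b5) to 0.994 (Mup3), and none passed at an unadjusted p under 0.05. Hsd3b5 was highest on average at ZT 6, with livers at 258 and 289 CPM, but its 2 livers at ZT 10 lay at 48.6 and 303 CPM and spanned the range of all other times. For the 4 members that passed the filter on low counts among Hu livers alone, no difference in rhythm between arms was detected (edgeR, adjusted p = 0.479 for Mup3, 0.528 for Mup21, 0.720 for Selenbp2 and 0.805 for Mup20, 0 members at an unadjusted p under 0.05, 0 with DESeq2). Over all genes 1.28% had a different rhythm. The other 4, Elovl3 with 0 to 24 and Hsd3b5 with 0 to 13 counts in Hu livers among them, had too few counts there for a rhythm to be seen.

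The Mu liver at ZT 10, replicate 1, had the lowest level of all 12 Mu livers for each of the 8 members. Mup3 was at 3630 CPM there against 5090 to 7601 CPM in the other 11, Mup21 at 147 against 345 to 691 CPM, Hsd3b5 at 48.6 against 117 to 303 CPM and Selenbp2 at 281 against 699 to 1633 CPM. Alb was not low there, at 65235 CPM against 52149 to 73344 CPM. Cyp2a4, a female-biased steroid hydroxylase, was higher there than in any other Mu liver, at 950 against 97.2 to 450.0 CPM, and so was Abcd2, at 34.3 against 6.46 to 21.02 CPM. Slco1a1, a male-biased anion transporter, was at 526 CPM there, inside the range of the others, 438 to 1202 CPM. The male-biased Cyp4a12a was inside as well, at 396 against 364 to 502 CPM. Cyp2a4, Abcd2, Slco1a1 and Cyp4a12a were picked after values were seen, and the lists of sex-biased genes described below were not tallied in this liver.

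Across the 12 Mu livers the log2 levels of the members were correlated, with the liver at ZT 10, replicate 1, the lowest for each member. All 28 pairs had a positive Pearson r, from 0.458 to 0.953 with a median of 0.727, and 20 pairs passed a permutation test after adjustment over the 28. By Spearman's rho 3 of the 28 pairs passed: Mup3 with Mup20 (r = 0.941, adjusted p = 0.00168; rho = 0.846, adjusted p = 0.0305, permutation tests, n = 12 livers), Mup3 with Mup21 (rho = 0.797) and Mup20 with Hsd3b5 (rho = 0.769). For each pair, r was also taken without the 2 livers farthest from the median of its first gene. The median r over the pairs was then 0.283 and 23 pairs were positive, and Mup3 kept r = 0.788 with Mup20 and 0.821 with Mup21. The livers left out differ between pairs, and cutting the range of a gene lowers r in itself. How far the relation rests on single livers is thus not settled. With the mean of each time removed, the median r over all 12 livers was 0.812. Read sharing can add to a correlation between copies, and its part was not tested.

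The 5 genes outside the set whose log2 level followed the mean standardized level of the 8 members most closely over the 12 Mu livers were Mup14 (r = 0.956), Mup7 (r = 0.939), Entpd8 (r = 0.919), Mup16 (r = 0.904) and Syt3 (r = 0.901). Without the Mu liver at ZT 10, replicate 1, these were 0.795, 0.853, 0.691, 0.801 and 0.741. The values are a description over 12 livers of 1 arm. Entpd8, an ectonucleotidase, averaged 92.8 CPM in Mu livers against 34.1 CPM in Hu livers, and Syt3, a synaptotagmin, 3.46 and 2.54 CPM.

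Whether the remaining Hu signal follows how human the liver is was tested across the 15 Hu livers, as a slope on the human share; no Mu liver enters this test. Of the 8 members, 4 passed the filter on low counts among Hu livers, and none had a slope past the threshold. Mup21 changed by -0.33 ± 0.14 (SE) on the log2 scale per 10 percentage points of human share (edgeR, adjusted p = 0.0586), Mup20 by -0.31 ± 0.19 (adjusted p = 0.184), Selenbp2 by -0.18 ± 0.10 (adjusted p = 0.129) and Mup3 by -0.17 ± 0.14 (adjusted p = 0.326). Over all 13879 genes tested, 49.8% had a slope in either direction and 24.3% a downward slope. Mup21 was the 1 member past an unadjusted p under 0.05, and it passed with DESeq2 (slope -0.35, adjusted p = 0.00912), with the human share on a logit scale (adjusted p = 0.0350), with a replicate block (slope -0.48, adjusted p = 0.0133) and without the Hu liver at ZT 2, replicate 2, or that at ZT 18, replicate 2 (adjusted p = 0.0495 and 0.0477). With counts scaled to the summed hepatocyte markers, the slopes were -0.20 for Mup21, -0.17 for Mup20, 0.02 for Mup3 and 0.03 for Selenbp2. With library sizes over mouse and human rows all 4 had a downward slope past the threshold. In that setting so did 11656 of the 13734 genes tested, so nothing is read from it about the members.

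**Figure D3:**
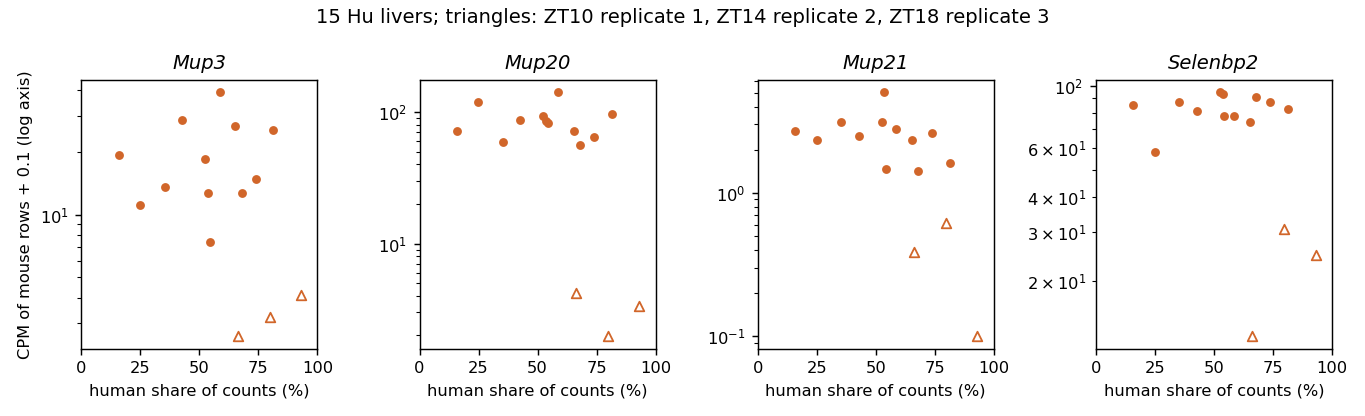
Level of Mup3, Mup20, Mup21 and Selenbp2 (CPM of mouse rows plus 0.1, log axes) against the human share of counts in each of the 15 Hu livers. Triangles mark the livers at ZT 10 (replicate 1), ZT 14 (replicate 2) and ZT 18 (replicate 3), which are the lowest in all 4 panels, at shares of 66.3, 79.8 and 93.1%.

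The Hu livers did not form a smooth series. The livers at ZT 10 (replicate 1), ZT 14 (replicate 2) and ZT 18 (replicate 3) were below the other 12 Hu livers for all 4 of these members; they were singled out after their values were seen, and no test was made. Mup20 was at 4.14, 1.87 and 3.25 CPM in them, against 55.9 to 142 CPM in the other 12. Mup3 was at 2.50, 3.13 and 4.03 CPM against 7.32 to 38.9 CPM, and Selenbp2 at 12.6, 30.5 and 24.8 CPM against 58.0 to 94.7 CPM. Mup21 was at 0.287, 0.514 and 0 CPM against 1.31 to 4.94 CPM. Human share alone does not sort them, since the Hu livers with shares of 67.9, 73.9 and 81.3% had 55.9, 64.8 and 97.2 CPM of Mup20. In the same 3 livers the male-biased fatty acid hydroxylase Cyp4a12a was at 14.9, 8.96 and 14.7 CPM against 34.8 to 246 CPM, and the female-biased Cyp2a4 at 827, 382 and 407 CPM against 2682 to 5502 CPM; both genes were picked after their values were seen, and the lists were not tallied in these livers. Alb was at 58709, 58032 and 12029 CPM in them, against 40075 to 74961 CPM in the other 12. Stellate markers summed to 2976, 3014 and 7874 CPM in them, against 512 to 3373 CPM in the other 12, endothelial markers to 705, 897 and 2835 CPM against 282 to 1136 CPM, bile duct markers to 847, 627 and 1566 CPM against 244 to 943 CPM, and Kupffer markers to 1054, 744 and 3507 CPM against 505 to 1209 CPM. Their part in the low values was not tested.

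The genes around the members were taken from 3 lists of growth hormone signalling, male-biased and female-biased liver genes. The lists were chosen with earlier results of these data known. Their counts and p-values between the arms, here and below, are therefore a description and not an independent test. On the male-biased list, without the members, all 17 genes tested fell in Hu livers, against 37% of all genes, with a median log2 difference of -2.78 against 0.07 over all genes tested. The hepatocyte markers moved the same way in this fit, with 11 of 14 called lower, 0 higher and a median of -1.30, and their part in the lists' differences was not tested. In 13 of the 17 male-biased genes every Hu liver was below every Mu liver, against 3.67% of all genes. The largest differences were for Slco1a1, from 841 ± 226 CPM (SD, n = 12) to 3.29 ± 3.37 CPM (SD, n = 15) and a fitted log2 difference of -8.59 ± 0.63 (SE, adjusted p = 2.40e-11), the peroxisomal hydrolase Nudt7 (-5.02), the oxysterol hydroxylase Cyp7b1 (-4.46), the complement component C8b (-4.42) and the complement regulator Susd4 (-4.40). Under the other scalings and tests 13 to 17 of the 17 were called lower and none higher.

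The female-biased list moved less uniformly. Of its 19 genes 16 passed the filter on low counts, and 8 rose, 2 fell and 6 did not pass the test, with a median log2 difference of 0.91, against 37% of all genes called lower and 42.5% higher. With library sizes over all rows 5 rose and 5 fell (median 0.23), and with hepatocyte scaling 11 rose and 1 fell. The transcriptional repressor Cux2 rose from 0.858 ± 0.210 to 19.03 ± 15.8 CPM (SD; log2 difference 3.79 ± 0.40 SE, edgeR adjusted p = 1.13e-08), with Hu livers at 3.41 to 59.0 CPM. Also higher were Cyp2a4 from 266 to 3367 CPM (3.07), Fmo2 from 12.9 to 93.2 CPM (2.26), A1bg from 0.141 to 1.17 CPM (2.12) and the sulfotransferase Sult2a1 from 1.45 to 7.92 CPM (1.85), the last not past the threshold with library sizes over all rows (adjusted p = 0.126). The neurotrophin receptor Ntrk2 fell by 3.65, and Cyp2b13 by 0.86 (adjusted p = 0.0269), a call that was lost without the Mu liver at ZT 2 (replicate 1), ZT 14 (replicate 2) or ZT 22 (replicate 2), at adjusted p = 0.0525, 0.0602 and 0.0514 with edgeR, and without TMM factors (adjusted p = 0.423).

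**Figure D4:**
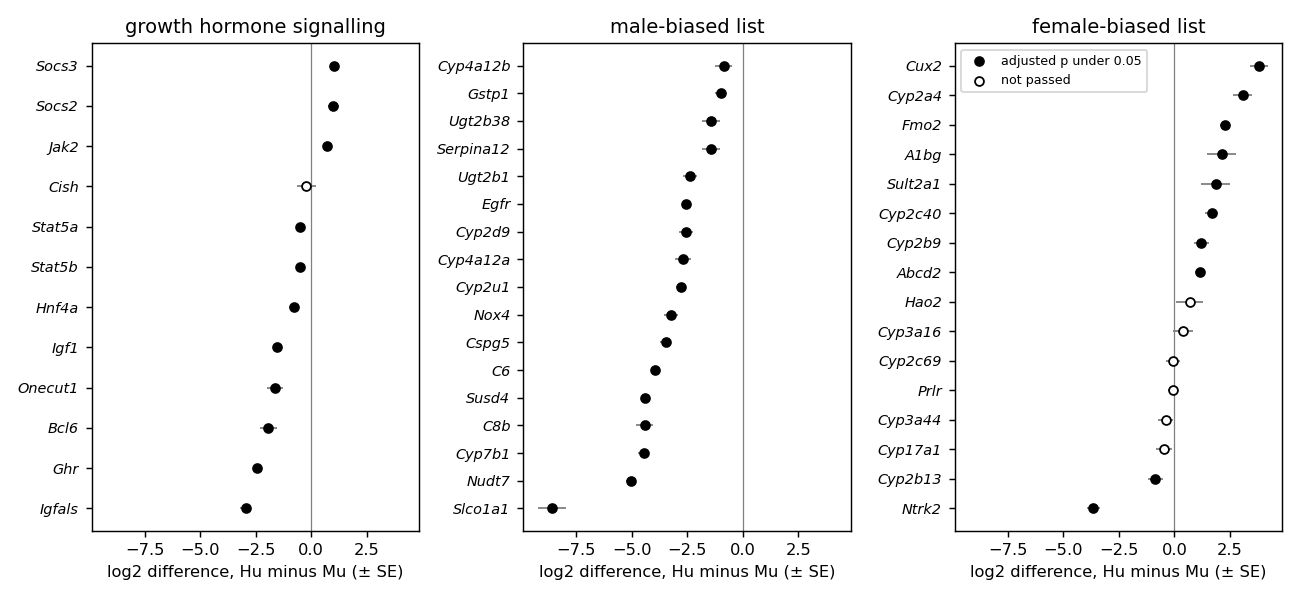
Fitted log2 difference between arms (Hu minus Mu, points, with SE as bars) for the tested genes of the growth hormone signalling, male-biased and female-biased lists, members left out. Filled points passed an adjusted p of 0.05; all 17 male-biased genes lie left of 0, while 8 female-biased genes were called to the right and 2 to the left.

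Of the 12 growth hormone signalling genes, 8 were called lower, 3 higher and 1 neither, against 37% and 42.5% of all genes. The balance depends on the scaling, with 9 lower and 0 higher with library sizes over all rows, and 2 lower and 5 higher with hepatocyte scaling. The receptor gene Ghr averaged 575 ± 83.3 CPM in Mu livers against 164 ± 45.1 CPM in Hu livers (SD) with no overlap, a fitted log2 difference of -2.43 ± 0.18 (SE, adjusted p = 4.56e-11). Of the secreted targets, Igfals, the acid-labile subunit that binds IGF1 in blood, fell by 2.96, with no overlap, and Igf1 by 1.52. The transcription factors and cofactors Bcl6, Onecut1 and Hnf4a were called lower, at -1.94, -1.62 and -0.78. With hepatocyte scaling the calls of Igf1 (-0.43), Bcl6 (-0.83) and Onecut1 (-0.35) were lost. Without TMM factors, described below, that of Hnf4a was lost (-0.17). The kinase gene Jak2 (0.69) and the feedback inhibitors Socs2 (0.997) and Socs3 (1.03) were called higher, and the feedback inhibitor Cish was not called (-0.23, adjusted p = 0.617). With library sizes over all rows the calls of Socs2 (0.24) and Socs3 (0.23) were lost.

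The directions of the small differences depend on the scaling. The median log2 difference of all genes was 0.07 with TMM (trimmed mean of M values) factors, 0.74 without them, -0.70 with library sizes over mouse and human rows, and 1.28 with counts scaled to hepatocyte markers. Of all calls, 53.5% were higher in Hu livers in the first case and 84.9%, 21.7% and 92.8% in the others. Stat5a and Stat5b, the transcription factors of the pathway, were called lower at -0.49 and -0.52, but their CPM means were 13.7 and 67.1 in Mu against 15.5 and 72.4 in Hu livers, and both changed sign without TMM factors and with hepatocyte scaling. Of the 48 listed genes 11 changed sign under at least 1 of the settings tried, among them Cish without TMM factors and with hepatocyte scaling, Hnf4a with hepatocyte scaling and Jak2 with library sizes over all rows. For no member of the set did any scaling change the direction. The members were chosen for this contrast, and their differences were far larger than the shifts between scalings, so nothing is read from it.

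Outside the liver the members averaged far lower levels than in Mu livers. Single muscle libraries overlapped Mu livers for Elovl3, which reached 49.97 CPM in Hu muscle against 9.66 CPM in the lowest Mu liver. Elovl3 also averaged more in Hu muscle, at 7.67 CPM, than in Hu livers, at 0.176 CPM. In muscle (15 Hu and 12 Mu libraries, 43.1 to 92.1 M counts) Elovl3 and Selenbp2 passed the filter on low counts, while Mup3, which averaged 1.77 CPM in Mu muscle through a few libraries, did not. Selenbp2 ranged from 0.321 to 2.12 CPM in Hu and from 0.542 to 3.25 CPM in Mu muscle and was not called (log2 difference -0.15 ± 0.26 SE, adjusted p = 0.696). Elovl3 ranged from 0.0774 to 49.97 CPM (median 0.626) in Hu muscle and from 0 to 18.9 CPM (median 0.176) in Mu muscle. These ranges overlap, and the mean was called higher in Hu muscle, by 3.69 ± 1.08 (SE) on the log2 scale (edgeR, adjusted p = 0.0147), which is opposite in sign to the liver. Without the Hu library at ZT 6 (replicate 1) the difference was 2.83, and without the Mu library at ZT 2 (replicate 2) it was 4.72. Of all genes in muscle 13.5% were called higher and 26.9% in either direction.

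Fat markers moved with Elovl3 in muscle. All 5 of the markers Adipoq, Plin1, Cidec, Ucp1 and Cidea were detected in every muscle library, and their sum ranged from 38.0 to 1443 CPM (median 219) in Hu and from 4.06 to 975.5 CPM (median 33.5) in Mu muscle. Ucp1, the uncoupling protein of brown fat, was higher in Hu muscle by 4.22 ± 1.20 (SE, edgeR adjusted p = 0.0126). Elovl3 exceeded 1 CPM in 7 Hu libraries and 1 Mu library, and the 7 libraries with the most Ucp1 were all among these 8. The part of fat in the Elovl3 difference was not tested.

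Mup3 exceeded 3 counts in 8 of 12 Mu and 4 of 15 Hu muscle libraries, and Mup20 in 5 Mu libraries and 1 Hu library. The hepatocyte gene Alb exceeded 3 counts in all 27. In Mu muscle Mup3 had 997 counts at ZT 14 (replicate 1), where Alb had 8447, and 348 counts at ZT 2 (replicate 2), where Alb had 3162. In the 6 Mu muscle libraries with 100 or more Alb counts there were 8.01 to 16.9 Mup3 counts per 100 Alb counts, inside or close to the 5.57 to 14.6 of Mu livers. In the 5 such Hu muscle libraries the ratio was 0 to 5.18 per 100, and in Hu livers it was 0.00426 to 0.0727 per 100.

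**Figure D5:**
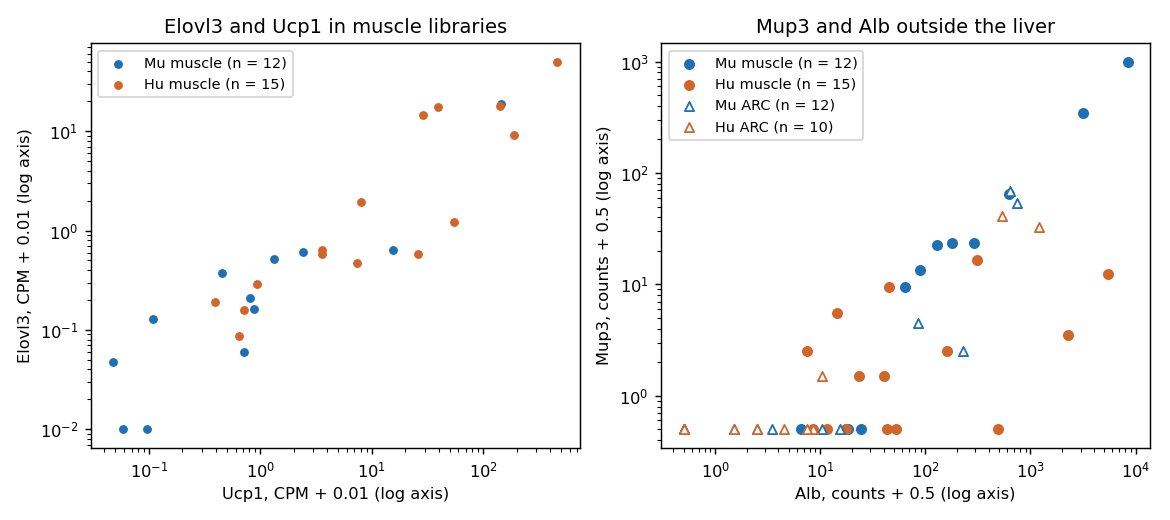
Left, Elovl3 against Ucp1 in each muscle library (CPM plus 0.01, log axes); right, Mup3 against Alb in each muscle and ARC library (counts plus 0.5, log axes), with Mu in blue, Hu in orange, circles for muscle and triangles for ARC. Elovl3 was highest, at 49.97 CPM, in the Hu library with the most Ucp1, and the 4 ARC libraries of ZT 18 had 32 to 68 Mup3 counts.

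In ARC and SCN (10 Hu and 12 Mu libraries each) no member passed the filter on low counts, so none was tested. In ARC all 4 libraries of ZT 18 held Mup3, with 68 and 53 counts in Mu and 32 and 41 counts in Hu, while no other ARC library had more than 4. The same 4 libraries had 642, 741, 1199 and 533 counts of Alb. The Hu libraries among them had 2.67 (95% exact interval 1.82 to 3.79) and 7.69 (5.46 to 10.6) Mup3 counts per 100 Alb counts, both above all 15 Hu livers; the second lies inside the range of Mu livers and the first below it. The Mu ARC library at ZT 14 (replicate 2) had 227 Alb counts and 2 of Mup3. In SCN, Mup3 had at most 5 counts and Alb at most 24.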

How the data were processed

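RNA was sequenced from directional libraries, per the labels' protocols. The authors deposited 1 table of raw read counts for liver, with mouse and human rows, and 1 shared by muscle, ARC and SCN. The submitters' processing notes name STAR and the builds GRCm38, mm10, hg38, GRCh38 and hg19; the counting program and its treatment of reads with several matches are not given in the sources used here. Members and gene lists were chosen with earlier results of these data known. Groups came from sample titles. The labels do not state that replicates are separate animals, so p-values measure the spread between these samples.

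Counts were fitted with edgeR 4.0.16 (quasi-likelihood, TMM over mouse rows, filterByExpr by arm, cosine and sine of a 24 h period per arm) and adjusted by Benjamini-Hochberg at 0.05; 14977 of 19689 mouse genes passed in liver. The human share slope used the 15 Hu livers. Permutation tests were two-sided with 100000 resamples. On simulated counts for 14977 genes, 198 of 200 level changes, 185 rhythms, 163 different rhythms and 190 slopes were recovered. False calls among the other genes numbered 13, 14, 6 and 6. The planted slopes were larger than those of the members, and the planted rhythms larger than those of all members but Elovl3. Recovery therefore does not measure the power for differences as small as those of the members.

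Named were the members, all signalling genes tested, the 5 largest changes per direction of each sex-biased list, relatives of members, the 3 most abundant other Mup rows and the 5 genes most like the members; text on single livers was chosen after values were seen. DESeq2 1.42.0, other scalings, no filter, a replicate block, a logit share, time as a factor and leaving out each library were tried. Intervals and floors (3 counts) cover counting error only. In ARC and SCN, 1 Hu library at ZT 22 carries no replicate number. A gene of the female-biased list is not reported here and enters none of its counts.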

Additional observations from a re-analysis of the deposited data

How the results depend on the processing

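Of 1453 alternative values of single genes, 1414 kept their direction and side of the threshold, 13 fell below it, 9 passed it, 5 moved and 12 reversed; of 270 summary values 14 moved. Elovl3 was the 1 rhythmic member, and there were 0 with library sizes over all rows and with time as a factor in Mu livers alone. The median member difference of -8.27 was -9.68 with library sizes over all rows and -8.38 to -8.22 with 1 liver left out. Listed genes called lower numbered 27 and fell to 16 with hepatocyte marker scaling; those called higher numbered 11 and fell to 5 with library sizes over all rows (25 to 27 and 11 to 12 with 1 liver left out). The number of members with a slope on human share was 0, against 4 with library sizes over all rows. In that setting 11656 of 13734 genes tested sloped down. The number was 1 without the filter, with the logit share and with DESeq2, and 0 to 1 with 1 liver left out. Without a filter 5 members differed in muscle, against 1. Members other than Elovl3 and Selenbp2 had median counts of 0 or 1 in Hu muscle. The share of all genes called without the filter is not given here, so nothing is read from that count.

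Reversed were Stat5a and Stat5b (0.18 and 0.14 without TMM factors, 0.65 and 0.67 with hepatocyte scaling), Hnf4a (0.057 with hepatocyte scaling), Jak2 (-0.10 with library sizes over all rows), Cish (0.43 without TMM factors, 0.83 with hepatocyte scaling, 0.0398 without Mu ZT 22 replicate 1, in a range of -0.368 to 0.0398), the slopes of Mup3 and Selenbp2 (0.017 and 0.0301 with hepatocyte scaling) and Selenbp2 in muscle (0.129 without Mu ZT 14 replicate 1, in a range of -0.250 to 0.129). The cause was not tested.

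The labels do not say whether replicate numbers pair the livers. Deviations of same-numbered Hu and Mu livers correlated at 0.0129 to 0.312 over 12 pairs, 7 of them over 0.1. Where both arms had 2 livers at a time, both pairs share 1 value by construction. The 12 values are thus not independent and do not settle whether the livers were paired. With a replicate block 1 member, Mup21, had a slope on human share. The median member difference was -9.52 with the block, but Mup1 entered it at -10.8 and not at its bound. It is therefore not comparable with the -8.27 given above. Few Hu counts of Mup1, Mup2, Hsd3b5 and Elovl3 limit what can be seen of their rhythm. Read sharing limits Mup1 and Mup2 most, and can also touch the counts of Mup20 and Selenbp2.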
